A study of Mus musculus with 6 samples.

Results

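The prostaglandin genes described here are 10 mouse genes for the synthesis, breakdown, uptake and sensing of prostaglandins, followed in stria vascularis of mice with a conditional mutation of Esrrb and of wild-type mice. The members were all probe sets that the platform annotation assigns to exactly 1 gene symbol, where that symbol is Ptgds, Hpgds, Ptgs1, Ptgs2, Ptges, Ptgis, Ptgdr, Ptger4, Hpgd or Slco2a1. They came to 18 probe sets of 9 genes, out of 45037 probe sets and 18193 genes in all; the annotation used here pairs no probe set with Ptgs1, so that gene was not analysed here. The family was chosen by the difference of Ptgds between mutant and wild type in these same arrays, which was known beforehand, so the member differences below describe the arrays and are no independent test.

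The 6 samples were 3 pools of Errb mutant stria vascularis and 3 pools of wild-type stria vascularis, each pool holding tissue from 10 mice and each hybridised to 1 Affymetrix array. Errb is the labels' name for Esrrb, the gene of the orphan receptor estrogen-related receptor beta, a transcription factor, and the mutants came from a conditional knock-out. Neither the Cre line, nor the cells in which it acts, nor the strain is stated in the sources at hand, and the design text speaks of inner ears where the sample labels speak of stria vascularis. Only 1 pool, wild-type replicate 1, carries an age in its label, postnatal day 3 to 5. The comparison asks which transcripts differ between mutant and wild-type stria.

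The stria vascularis lines the lateral wall of the cochlear duct and pumps potassium into the endolymph. Prostaglandins are lipid mediators made from arachidonic acid: a cyclooxygenase makes the unstable intermediate prostaglandin H, terminal synthases turn it into prostaglandin D, E or I, and these act on G-protein-coupled receptors of nearby cells. A membrane carrier takes the prostaglandins up again and a cytosolic dehydrogenase inactivates them. Lipocalin-type prostaglandin D synthase, the product of Ptgds, is also a secreted carrier of small lipophilic molecules such as retinoids.

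The arrays fall into 3 same-numbered pairs of 1 mutant and 1 wild-type pool. Across probe sets, the 2 arrays of pairs 1, 2 and 3 departed from their genotype means with correlations of 0.879, 0.818 and 0.746, and all differences below are mutant minus wild type within these pairs, on the log2 scale. Pair 1 stood apart. In it 34.2% of all probe sets had exactly the same value on both arrays, against 2.63% in pair 2 and 3.10% in pair 3, and Gapdh read at its 3' end minus Gapdh read at its 5' end, a sign of RNA quality, was 2.57 in the mutant and 2.28 in wild type, against -0.04 to 0.51 on the other arrays. The best expressed probe set of Esrrb differed by -0.07 ± 0.21 (SD, n = 3 pairs). Its dimmer probe sets differed by -0.18 ± 0.43 and -0.42 ± 0.46, the last lower in all 3 pairs (limma paired adjusted p = 0.719 to 0.856 for Esrrb). Whether the Esrrb probe sets cover the deleted exons is not stated, so these values are no check of the labels. Precision is limited by having 3 arrays of each genotype, for which the smallest p of an exact two-sided permutation test is 0.25 within the pairs and 0.1 without them. Nothing in the labels says how the pools were separated beyond their numbers, so p-values measure only the spread between these samples.

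Of the prostaglandin genes, Ptgds fell in the mutant and no other member passed the test. Ptgds encodes the lipocalin-type synthase that turns prostaglandin H into prostaglandin D. By its best expressed probe set Ptgds measured 11.30, 12.34 and 11.78 (log2) in mutant replicates 1 to 3, against 12.75, 14.10 and 13.68 in wild-type replicates 1 to 3. The second probe set measured 9.67, 11.18 and 10.62 in the mutant replicates, against 11.65, 13.68 and 13.51 in the wild-type replicates. On both probe sets every mutant array lay below every wild-type array, and replicate 1 was the lowest array of each genotype. The order of replicates is not particular to Ptgds. The median over all probe sets was also lowest in replicate 1, at 6.08 (mutant) and 6.07 (wild type), against 6.38 to 6.95 on the other arrays.

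The first Ptgds probe set differed by -1.45, -1.76 and -1.89 in pairs 1 to 3, a mean of -1.70 ± 0.23 (SD, n = 3), which is 3.25-fold lower in the mutant. The second differed by -1.98, -2.50 and -2.89, a mean of -2.46 ± 0.46 or 5.50-fold lower. Both thus showed the smallest difference in pair 1 and the largest in pair 3. Between the probe sets the differences were apart by -0.53, -0.75 and -0.997 in the 3 pairs, so the size of the fall is less certain than its direction. Signal over background is not given. Even in the mutant, the first probe set stayed at the 98.9 to 99.1 percentile of all probe sets on its array, against the 99.80 to 99.96 percentile in wild type, and the second at the 94.97 to 97.17 percentile, against 99.24 to 99.84 in wild type; a percentile places a probe set's signal on its array and is not an amount of RNA.

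In the paired fit, limma with the replicate number as a block and Benjamini-Hochberg adjustment over all 45037 probe sets, 2 of the 18 prostaglandin probe sets passed the threshold of 0.05, both lower and both of Ptgds; over all probe sets 0.0933% passed, and 0.0822% passed as lower. Nothing is read from this count, since Ptgds led to the choice of the family. The 2 probe sets had adjusted p = 0.0267 and 0.0389 in the paired limma fit and adjusted p = 1 for both in the unpaired limma fit, where 0.00666% of all probe sets passed and the pair-to-pair variation seen above stays in the error. Their 95% intervals in the paired fit were -1.96 to -1.44 and -2.90 to -2.01. With 1 pair left out, 1 residual degree of freedom remained: without replicate 1 the second probe set alone passed, and without replicate 2 or replicate 3 none did, while the first probe set differed by -1.60 to -1.83. Among all probe sets the 2 ranked 17 and 5 from the lowest mean difference, and among the best expressed probe sets of 18193 genes Ptgds ranked 10.

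**Figure D1:**
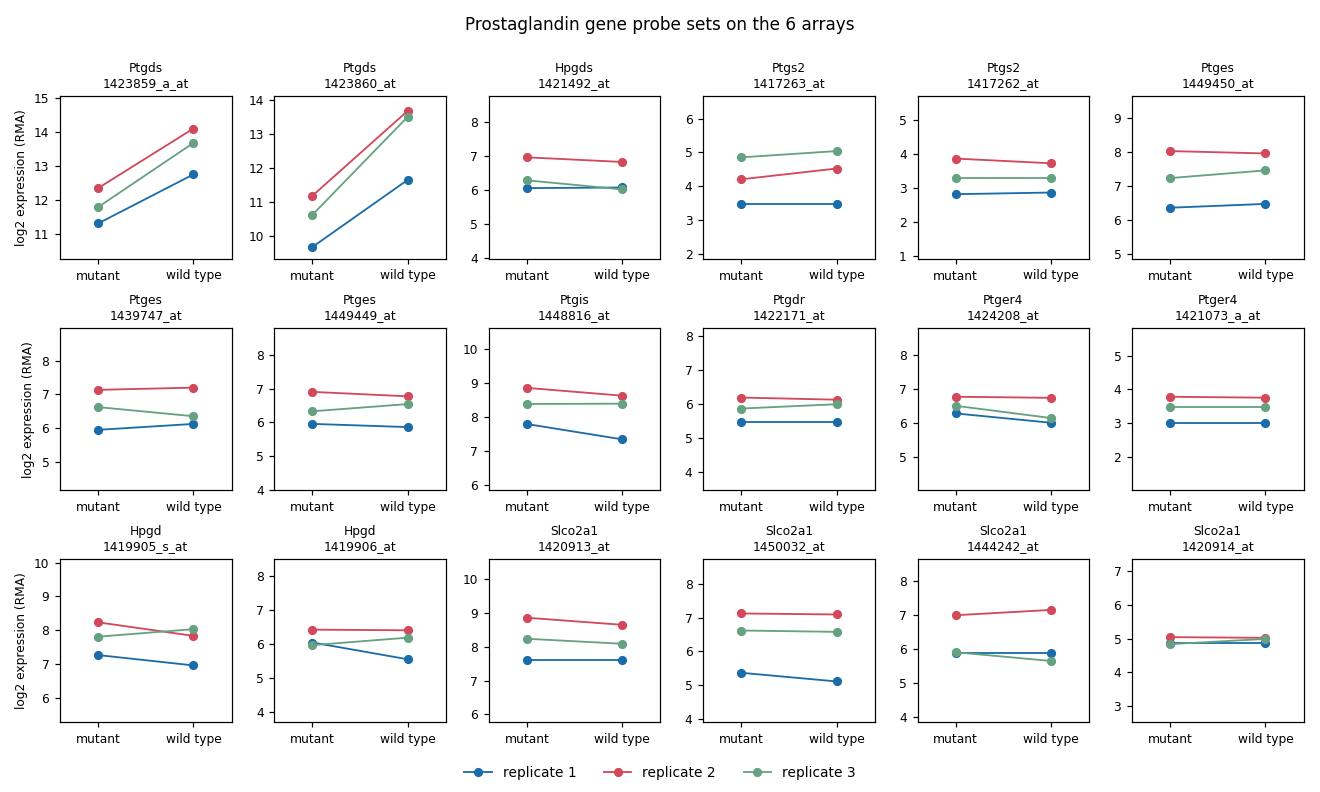
Log2 expression (RMA) of the 18 prostaglandin probe sets, 1 panel each, in Errb mutant (left) and wild-type (right) pools, with a line joining the arrays of the same replicate number; all panels span the same height. Both Ptgds panels show all 3 mutant arrays (11.30 to 12.34 and 9.67 to 11.18) below all 3 wild-type arrays (12.75 to 14.10 and 11.65 to 13.68), while in the other 16 panels the genotypes overlap.

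Hpgds encodes the hematopoietic prostaglandin D synthase, a glutathione transferase family enzyme known from mast cells and macrophages that makes the same product as Ptgds. Its probe set measured 6.06, 6.97 and 6.29 in the mutant replicates, against 6.08, 6.84 and 6.03 in the wild-type replicates. The genotypes overlapped, and the differences of -0.02, 0.14 and 0.27 averaged 0.13 ± 0.14 (SD, n = 3; limma paired adjusted p = 0.751, 95% interval -0.08 to 0.34). The interval leaves out a fall of the size seen for Ptgds. Macrophage markers had summed linear levels of 3743 to 7755 in the mutant and 3734 to 6098 in wild type. Their log2 ratios of mutant over wild type in pairs 1 to 3 were 0.003, 0.35 and 0.12. Of these 8 markers 3 were higher in all 3 pairs, against 12.1% of all probe sets. Mast cell markers summed to 325 to 563 in the mutant and 308 to 579 in wild type, with 0 of 8 higher or lower in all 3 pairs. The part of these cells in the Hpgds values was not tested.

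The 250 bases before the gene starts of both synthases are shown because only one of these genes fell. They are RefSeq sequences on GRCm38.p6, each read 5′ to 3′ on the gene's strand, the minus strand in both cases, for Ptgds chr2:25469750-25469999 and for Hpgds chr6:65144731-65144980. RefSeq also places an outer gene boundary 361 bases upstream of the start used for Ptgds and 251 bases upstream of that used for Hpgds, so the windows belong to 1 annotated start each.
Ptgds: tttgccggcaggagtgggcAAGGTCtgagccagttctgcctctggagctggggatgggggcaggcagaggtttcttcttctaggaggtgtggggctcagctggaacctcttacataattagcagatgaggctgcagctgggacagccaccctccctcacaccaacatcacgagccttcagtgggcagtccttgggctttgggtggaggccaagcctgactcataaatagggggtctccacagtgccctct
Hpgds: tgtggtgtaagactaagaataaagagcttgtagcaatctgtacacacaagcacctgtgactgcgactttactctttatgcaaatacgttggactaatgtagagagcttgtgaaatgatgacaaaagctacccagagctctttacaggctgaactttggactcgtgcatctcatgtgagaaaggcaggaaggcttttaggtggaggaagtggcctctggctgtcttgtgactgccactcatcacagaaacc

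Capitals mark AAGGTC, which begins 231 bases before the Ptgds start. Estrogen-related receptors are known to bind the half-site AAGGTCA, an extension of the nuclear receptor half-site AGGTCA. Both strands were searched in windows from 250 bases before to 50 bases after each start. AAGGTCA occurred in 4.72% and AGGTCA in 16.3% of 32851 RefSeq promoters, and each in 0 of 9 prostaglandin gene promoters. These 9 include Ptgs1 and leave out Ptgis, for which no promoter was at hand. The shorter AAGGTC, which makes up the first bases of AAGGTCA and was searched after the sequences were seen, occurred in 12.3% of all promoters and among the 9 only in that of Ptgds. These matches describe letters in the windows and say nothing of binding. The GC content was 58.4% for the Ptgds stretch and 45.2% for that of Hpgds.

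Upstream of both synthases stand the cyclooxygenases. Ptgs2, the inducible cyclooxygenase gene, gave its brighter probe set values of 3.47, 4.21 and 4.86 in the mutant replicates, against 3.47, 4.53 and 5.04 in the wild-type replicates. That probe set also lay low, at the 5.85 to 24.3 percentile in the mutant and the 7.18 to 26.3 percentile in wild type. The genotypes overlapped and the difference was -0.17 ± 0.16 (SD, n = 3; limma paired adjusted p = 0.745). The other Ptgs2 probe set differed by 0.03 ± 0.10 and lay at the 1.47 to 2.72 percentile of its array in the mutant and the 1.51 to 2.04 percentile in wild type, so a level there could not be told from background with the values deposited.

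The synthases of the other prostaglandins did not pass either. Ptges encodes the microsomal synthase of prostaglandin E, and its brightest probe set measured 6.36, 8.03 and 7.23 in the mutant replicates, against 6.47, 7.96 and 7.46 in the wild-type replicates. This is a difference of -0.09 ± 0.15 (SD, n = 3), with an interval of -0.30 to 0.12; the other 2 Ptges probe sets differed by 0.01 ± 0.23 and 0.004 ± 0.19. Each of the 3 changed sign between pairs. Ptgis encodes the cytochrome P450 family synthase of prostaglandin I, or prostacyclin. It measured 7.79, 8.86 and 8.38 in the mutant replicates, against 7.34, 8.63 and 8.39 in the wild-type replicates. The Ptgis differences of 0.45, 0.23 and -0.01 averaged 0.22 ± 0.23 (SD, n = 3; limma paired adjusted p = 0.731), the largest in pair 1 and close to 0 in pair 3.

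**Figure D2:**
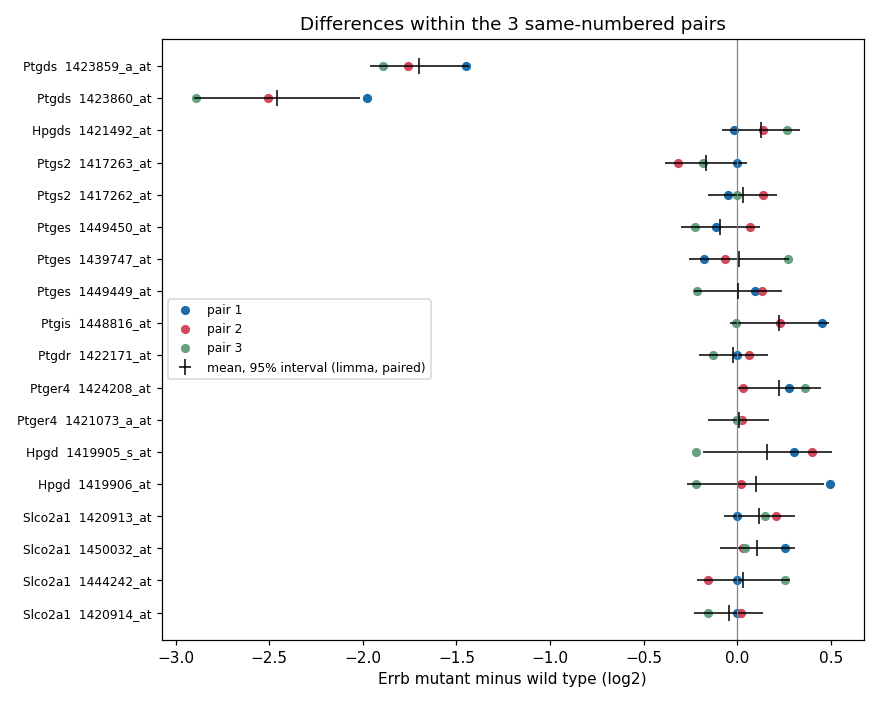
Errb mutant minus wild type (log2) for the 18 prostaglandin probe sets in pairs 1 to 3 (coloured points), with the mean and its 95% interval from the paired limma fit (black). The Ptgds points lie between -2.89 and -1.45, and those of the other 16 probe sets within 0.50 of 0.

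Both measured receptors of the family had small differences. Ptgdr encodes the DP receptor for prostaglandin D, and measured 5.47, 6.20 and 5.87 in the mutant replicates, against 5.47, 6.14 and 6.001 in the wild-type replicates. The values were equal in pair 1, and the mean difference was -0.02 ± 0.10 (SD, n = 3; interval -0.21 to 0.16). Ptger4 encodes an EP receptor subtype for prostaglandin E that couples to cyclic AMP. Its brighter probe set measured 6.28, 6.77 and 6.50 in the mutant replicates, against 6.003, 6.74 and 6.14 in the wild-type replicates. The mutant was higher in each pair, by 0.28, 0.03 and 0.36, with a mean of 0.22 ± 0.17 (SD, n = 3), but the genotypes overlapped and the probe set did not pass (limma paired adjusted p = 0.697, the lowest among the members other than Ptgds). The second Ptger4 probe set was equal in pairs 1 and 3 and lay at the 1.73 to 4.06 percentile over the 6 arrays.

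The genes for uptake and breakdown showed no difference past the threshold. Slco2a1 encodes the prostaglandin transporter, and its brightest probe set measured 7.61, 8.85 and 8.23 in the mutant replicates, against 7.61, 8.64 and 8.08 in the wild-type replicates. The values were equal in pair 1 and higher in the mutant in the other pairs, a mean of 0.12 ± 0.11 (SD, n = 3); the 3 dimmer Slco2a1 probe sets averaged 0.11, 0.03 and -0.04. Hpgd encodes the 15-hydroxyprostaglandin dehydrogenase that inactivates prostaglandins. Its brighter probe set measured 7.27, 8.24 and 7.81 in the mutant replicates, against 6.97, 7.84 and 8.04 in the wild-type replicates. Hpgd was higher in the mutant of pairs 1 and 2 and lower in that of pair 3, on average 0.16 ± 0.33 (SD, n = 3), and its second probe set moved the same way in each pair, with 0.50, 0.02 and -0.22.

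Among themselves, the 16 probe sets of the 8 genes other than Ptgds had mean differences from -0.17 to 0.22 and limma paired adjusted p from 0.697 to 0.992, and the limits of their 95% intervals ran from -0.38 to 0.50. None passed an unadjusted p of 0.05 in the paired or the unpaired fit, against 7.18% and 0.209% of all probe sets. A total of 2 of the 18 probe sets were lower in all 3 pairs, both of Ptgds, against 8.41% of all probe sets. Another 2, of Ptger4 and Slco2a1, were higher in all 3 pairs, against 12.1%. In 2 of 18 the genotypes did not overlap, both again of Ptgds, against 1.07% of all. Over the best expressed probe sets the median difference of the 9 genes was 0.12, against 0.004 over 18193 genes, and the medians in pairs 1 to 3 were 0, 0.07 and -0.13. In pair 1, 6 of the 18 probe sets had exactly equal values on both arrays and in pair 3 this held for 2, which narrows the spread of these differences.

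Other genes of the pathway were taken from 4 lists: 17 measured genes of 20 for other prostaglandin enzymes, receptors and carriers, 14 of 14 for release and reuse of arachidonic acid, 13 of 14 for lipoxygenases and leukotrienes, and 11 of 11 for lipocalins other than Ptgds. Of their 85 probe sets, 0 passed in the paired or the unpaired limma fit; at an unadjusted p under 0.05 there were 11 paired and 1 unpaired, against 7.18% and 0.209% of all probe sets. The list medians were -0.09, -0.02, -0.02 and -0.04 in the order given.

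None of the best expressed genes of each list passed. Cbr1, a carbonyl reductase acting on prostaglandins among other substrates, differed by -0.09 ± 0.13, and Ptgfrn, a membrane protein named for its inhibition of the prostaglandin F receptor, by 0.17 ± 0.36 (SD, n = 3 each). Abhd12, a lysophospholipid hydrolase gene, differed by 0.09 ± 0.12, and Lpcat3, which places arachidonate into phospholipids, by 0.03 ± 0.05. Lta4h, the leukotriene A hydrolase gene, differed by -0.09 ± 0.10, and Alox5ap, the activating protein of the arachidonate lipoxygenase of leukotriene synthesis, by 0.21 ± 0.10, higher in the mutant in each pair (limma paired adjusted p = 0.635). Apod, a lipocalin that binds arachidonic acid, was lower in each pair without passing, at -0.51 ± 0.18 (limma paired adjusted p = 0.282), and Apom, a carrier of sphingosine phosphate, differed by -0.06 ± 0.14.

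**Figure D3:**
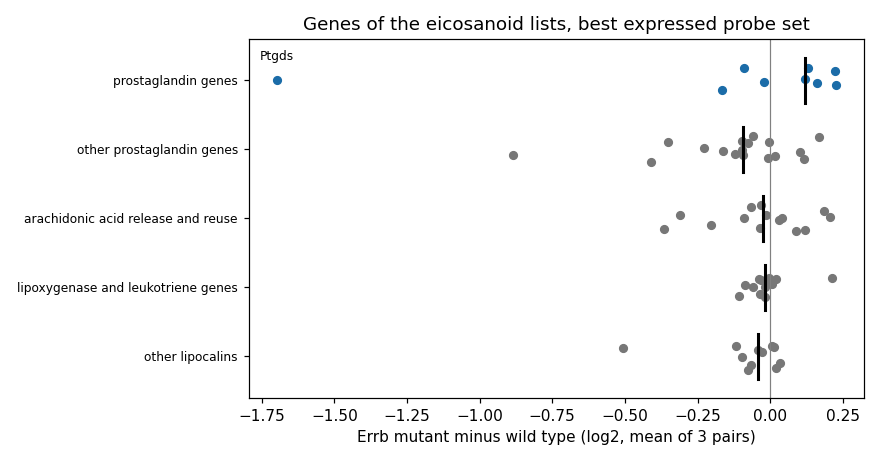
Errb mutant minus wild type (log2, mean of the 3 pairs) by gene, each at its best expressed probe set, for the 9 prostaglandin genes (blue, top) and 4 other lists (grey); black bars are list medians, from -0.09 to 0.12. Ptgds at -1.70 lies apart from all other points, of which the lowest is at -0.89.

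The genes whose pattern was most like that of Ptgds were sought by the Euclidean distance between the 3 pair differences, with each gene taken at its best expressed probe set. The nearest were Nipal1, a magnesium transporter gene (distance 0.239), Etnppl, which encodes a phosphoethanolamine-degrading lyase (0.348), Tmem45b (0.432), Atp13a5, a P-type ATPase gene (0.473), and F3, the tissue factor gene (0.499). Their mean differences ran from -1.54 for Etnppl to -1.86 for Atp13a5, near that of Ptgds because they were chosen so. In each of the 5 every mutant array lay below every wild-type array, against 1.07% of all probe sets without overlap. Nothing is read from this count, since genes with such differences were sought. Of the 5, Etnppl did not pass by this probe set (limma paired adjusted p = 0.0811), though its second probe set did (limma paired adjusted p = 0.0466). Second probe sets of Nipal1 and Atp13a5 differed by -0.55 and -1.55 without passing. The likeness rests on 3 differences and was measured on the same arrays.

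Since each pool is bulk tissue, fewer cells of a type and less RNA per cell cannot be told apart. In the paired limma fit 3 of 5 marginal cell markers and 1 of 3 genes listed for basal cells passed, each lower in the mutant. Of 12 markers of intermediate cells and melanocytes 0 passed, while 0.0822% of all probe sets passed as lower. Summed linear levels of 5 marginal cell markers were 2704 to 5549 in the mutant and 8107 to 15272 in wild type, with 5 of 5 lower in all 3 pairs. Those of 12 markers of intermediate cells and melanocytes were 5995 to 9602 in the mutant and 8314 to 15497 in wild type. Of these 12, 8 were lower in all 3 pairs and Tyrp1, Oca2, Sox10 and Kcnj13 were mixed. The 3 genes listed for basal cells summed to 5111 to 13452 in the mutant and 10606 to 23099 in wild type. Of these, 3 of 3 were lower in all 3 pairs, against 8.41% of all probe sets. As log2 ratios of mutant over wild type in pairs 1 to 3, the marginal cell sum stood at -1.58, -1.46 and -1.15 and the intermediate cell sum at -0.47, -0.69 and -0.58, beside -1.45, -1.76 and -1.89 for the best expressed Ptgds probe set. A linear sum follows its brightest gene, for marginal cells Slc12a2 with a wild-type mean of 12.72. Singly, the marginal cell markers differed by -4.32 (Kcne1), -1.67 (Kcnq1), -1.40 (Atp1b2), -1.22 (Slc12a2) and -1.05 (Bsnd). The basal cell sum stood at -1.05, -0.78 and -0.66. Of the 3 genes listed for basal cells Gjb6 passed, at -1.27 (limma paired adjusted p = 0.0304). Gjb2 at -0.72 and Cldn11 at -0.37 did not (limma paired adjusted p = 0.302 and 0.428). Gjb2 and Gjb6 were the brighter genes of the basal cell sum, with wild-type means of 12.93 and 12.45 against 11.06 for Cldn11. Whether these 3 genes are particular to basal cells was not tested. The part of marginal, intermediate and basal cells in the Ptgds values was not tested either.

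Marker sums of the other cell types that the dissection could hold were closer to equal in the genotypes, apart from neuron and Schwann cell markers. Fibroblast and leptomeningeal markers were included because Ptgds is a known gene of the meninges. They summed to 12029 to 20732 in the mutant and 11751 to 21087 in wild type. Of these 7 markers 1 passed in the paired limma fit, against 0.0933% of all probe sets. It was Aldh1a2, a retinoic acid synthesis enzyme gene, with a difference of -2.73 ± 0.18 (SD, n = 3, limma paired adjusted p = 0.0038). The matrix genes Dcn (0.23) and Col1a1 (0.96, with 2.24 in pair 1) were higher in all 3 pairs, the transcription factor gene Foxc1 (-0.18) was lower in all 3, and Lum (-0.07), Slc6a13 (0.05) and Slc22a6 (-0.10) were neither. Spiral ligament fibrocyte markers summed to 15515 to 33851 in the mutant and 16345 to 33035 in wild type, and pericyte and smooth muscle markers to 2520 to 4871 in the mutant and 2569 to 4637 in wild type. Endothelial markers summed to 1472 to 4056 in the mutant and 1911 to 4162 in wild type. Their log2 ratios of mutant over wild type in pairs 1 to 3 were -0.38, -0.04 and -0.14. Of these 8 markers 3 were lower in all 3 pairs, against 8.41% of all probe sets. The 3 of 5 neuron and Schwann cell markers that were measured had a log2 ratio of 1.81 in pair 1 and of -0.0009 and 0.08 in pairs 2 and 3. Of these, the neuronal genes Nefl (4.63, 0.82 and 0.54) and Tubb3 (1.12, 0.34 and 0.42) were higher in all 3 pairs, without passing, and the myelin gene Mbp (0, -0.19 and -0.04) was not. No marker is listed at 0, since RMA values have no true zero.

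**Figure D4:**
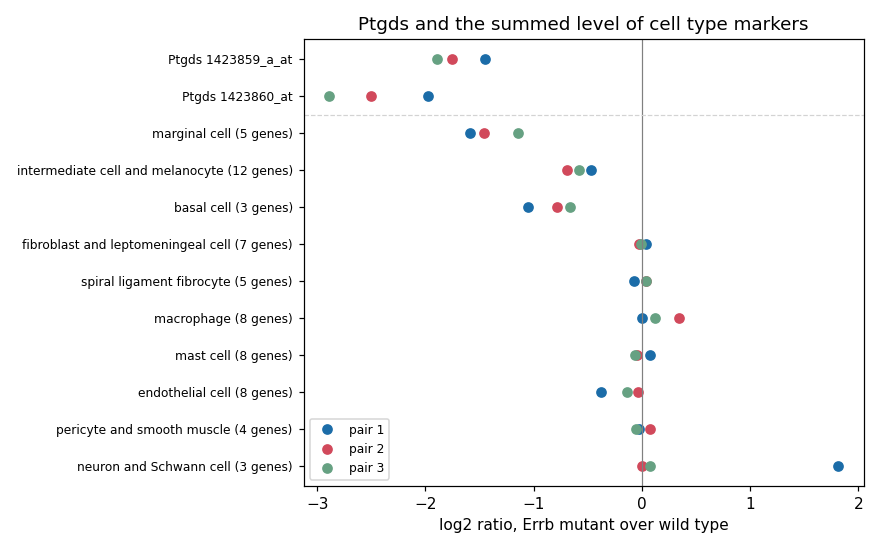
Log2 ratio of Errb mutant over wild type in pairs 1 to 3 for both Ptgds probe sets (top) and for the summed linear level of 10 cell type marker lists. Ptgds (-2.89 to -1.45) and the marginal cell sum (-1.58 to -1.15) are the lowest, and the neuron and Schwann cell sum is highest in pair 1 (1.81).

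Ptgds lies on mouse chromosome 2, as do Ptges, Ptgis and Ptgs1, whereas the mutated gene Esrrb lies on chromosome 12. Around Ptgds itself, 0 of the 10 nearest measured genes on each side passed in the paired limma fit, and 2 of these 20 had an unadjusted p under 0.05, against 7.18% of all probe sets. The lipocalin gene Lcn12 and the complement gene C8g, next to Ptgds on one side, differed by -0.04 ± 0.08 and -0.10 ± 0.12 (SD, n = 3 each). Clic3, an intracellular chloride channel family gene and the nearest measured gene on the other side, differed by -0.43, -1.09 and -1.16, a mean of -0.89 ± 0.40 (limma paired adjusted p = 0.281); it was named after its values were seen.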

How the data were processed

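The values used are those the authors deposited: 1 log2 expression value per probe set and array, which the submitters' processing notes credit to RMA without naming a version or settings. A range of 2.33 to 14.6 shows the scale to be log2. Whether arrays were normalized pair by pair is not given and was not tested. Exactly equal values occurred within same-numbered pairs and in 0 probe sets of the 12 other array pairs. Array medians over all probe sets lay close within each pair, the widest gap being 6.38 (mutant) against 6.42 (wild type) of replicate 3. Across pairs they ranged from 6.07 to 6.95, so the 6 arrays as deposited do not share 1 distribution. Of 45101 probe sets all but 64 Affymetrix controls entered the fit, with no filter on level. Genes were named from the platform annotation (34945 probe sets with 1 symbol, 932 with several, 9160 with none) and updated through a RefSeq table of GRCm38.p6; a gene is represented by its probe set with the highest mean.

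The paired fit used limma 3.58.1 under R 4.3.3, with a block for the replicate number and two-sided moderated statistics (lmFit, eBayes). The pairing comes from the numbers in the labels and from the correlations of same-numbered arrays, all above the limit of 0.1. Arrays processed together would correlate in this way too, so the correlations do not show that the pools themselves were paired. Alternatives were no block, quantile normalization, median centring, a level filter, eBayes with trend and robust options, and leaving out each pair. A further alternative left out all probe sets with IDs ending in _s_at, _x_at or _a_at. The named genes were all members, from each list those passing or, with none, the 2 of highest mean level, and the 5 genes most like Ptgds. The members and lists were chosen with earlier results of these data known. Marker sums add 2 to the power of each log2 value over the listed genes.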

Additional observations from a re-analysis of the deposited data

How the results depend on the processing

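The main fit has the replicate block. Without the replicate block, 0 of 18 prostaglandin probe sets passed, against 2, and 3 of all probe sets, against 42; the best expressed Ptgds probe set kept its difference of -1.70, with an interval of -2.66 to -0.74 and limma adjusted p = 1. Leaving out 1 pair gave 0 to 1 prostaglandin probe sets, 0 to 7 of all probe sets and a Ptgds difference of -1.83 to -1.60 with limma adjusted p = 0.0507 to 0.879, with fewer samples and 1 residual degree of freedom. Without probe sets with IDs ending in _s_at, _x_at or _a_at, 1 prostaglandin probe set passed, since the first Ptgds probe set ends in _a_at. The annotation used here lists 0 of the prostaglandin probe sets for other genes as well. Quantile normalization, median centring, the level filter and eBayes with trend and robust options kept 2 prostaglandin probe sets, both lower, and Ptgds adjusted p between 0.00909 and 0.0303 in limma. Over all 8 alternatives Ptgds ran from -1.83 to -1.60, with adjusted p from 0.00909 to 1. The other pathway probe sets gave 0 calls under the 8 settings run for them, with 85 tested, or 38 under the level filter. The median of the 9 genes moved by less than the spread between pairs, to 0.04 at the lowest. The differences of Hpgds, Ptgis and the brightest probe sets of Ptger4, Hpgd and Slco2a1 were above 0 in every setting that held them. Those of the brightest probe sets of Ptges and Ptgs2 were below 0 in every setting that held them. None of these passed in any setting, and all settings use the same arrays. Dropping the block, filtering probe sets or changing the eBayes options leaves a difference as it was. Only rescaling the arrays or leaving out a pair could have changed these signs. The differences of Ptgdr and of several dimmer probe sets changed sign. Arrays give no signal over background here, which limits the reading of both Ptgs2 probe sets and of the dimmer Ptger4 probe set.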

Other observations

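The genes given here did not pass the test and were chosen after their values were seen. Ptger3, which encodes another receptor subtype for prostaglandin E, differed by -1.06, -0.72 and -0.87 in pairs 1 to 3, a mean of -0.89 ± 0.17 (SD, n = 3; limma paired adjusted p = 0.0856), while its dimmer probe set differed by -0.05 ± 0.26. Abcc4, an efflux pump gene whose product exports prostaglandins, was lower in each pair, by -0.35 ± 0.12 on average (limma paired adjusted p = 0.398). Of the 6 probe sets of Ptgr2, a prostaglandin reductase gene, 4 were lower in all 3 pairs, with means from -0.45 to -0.23. Ptges2, another prostaglandin E synthase gene, differed by -1.03, -0.23 and 0.03, a mean of -0.41 ± 0.55 (limma paired adjusted p = 0.743). Among all probe sets, 8.41% were lower in all 3 pairs. The directions of Ptger3, Abcc4 and these 4 Ptgr2 probe sets were the same after quantile normalization and median centring.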
